A study of Mus musculus with 6 samples.

Results

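The E1 and E2 genes encode the enzymes that load ubiquitin and its relatives onto proteins, and their transcripts were compared between brains of mice with a Cre-targeted autophagy gene, Atg7, and control brains. Members were all genes whose symbol in the array annotation is Uba1 to Uba7, Sae1, Nae1 or begins with Ube1 or Ube2. The rule found 39 of the 19700 genes tested, 4 E1 genes and 35 E2 genes, measured by 50 transcript clusters. A transcript cluster is the group of probes for 1 transcribed region. Where a gene had several clusters, as 6 members did, the one with the highest mean signal was read. The symbols Uba7, Ube2g2 and Ube2j2 occur only in clusters shared with a second gene and are described apart. Uba1, Uba2 and Ube2m, which encode the main E1 of ubiquitin, a subunit of the SUMO E1 and an E2 of NEDD8, were not analysed here.

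RNA of 3 Atg7+/+ samples (control) and 3 Atg7f/f samples (cKO), all C57BL/6 at P16, was hybridised to 1 mouse exon array per sample. Both groups carry a Cre driver. It is Nestin-Cre in the paper, which is active in neural precursors, from which microglia do not descend, and it is NexCre in the sample labels, a driver of excitatory cortical neurons. The tissue is cerebral cortex in the methods and brain in the labels. Whether each array holds RNA of a separate mouse is not stated in the sources used here. The sex-linked genes given below set cKO replicate 1 apart, and they do not tell the remaining arrays from each other. The p-values therefore rest on a spread that may be technical in part.

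In ubiquitin conjugation, an E1 enzyme activates the modifier with ATP and hands it to the active-site cysteine of an E2 enzyme. The E2 then works with an E3 ligase that chooses the substrate. Relatives of ubiquitin such as SUMO, NEDD8 and ISG15 have E1 and E2 enzymes of their own. ATG7 is itself an E1-like enzyme, which activates LC3 and ATG12 for autophagosome formation. In neurons, ubiquitin chains mark proteins for the proteasome and for autophagy.

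The targeted gene was lower in each cKO array. Atg7 read 6.58, 6.54 and 6.39 in controls against 6.12, 6.03 and 5.90 in cKO brains (log2 signal). The difference was -0.48 (standard error 0.092, unadjusted p = 0.00125, adjusted p = 1 from limma). The cluster is shared with the symbol Camsap1, and which of its probes lie in the deleted part was not determined here. Any 2 arrays had a correlation of 0.980 to 0.990 across genes. cKO replicate 1 stood apart in its sex-linked genes, with Xist at 9.51 there and 3.48 to 4.15 elsewhere. The male markers Eif2s3y, Kdm5d and Uty read 2.90, 3.96 and 3.22 there, and 5.50 to 5.84, 5.92 to 6.07 and 5.26 to 6.74 elsewhere. These are the values of a female sample in cKO replicate 1 and of male samples elsewhere. Sex is not among the labels, and its part in the differences was not tested.

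No E1 or E2 gene passed the test over all genes. limma called 0 of 39 members and 0 of all 19700 genes (0%) at an adjusted p under 0.05. Without adjustment, p was under 0.05 for Ube2dnl2 and Ube2l6, which were higher (412 of all genes, 2.09%) and for Ube2ql1, which was lower (368 of all genes, 1.87%). These 3 members are 7.69% of the 39, beside 3.96% of all genes in either direction. All cKO arrays lay above the highest control for 3 members, Ube2dnl2, Ube2l6 and Ube2e2 (4.15% of all genes). They lay below the lowest control for 2, Ube2ql1 and Ube2q2 (4.24% of all genes). Fewer arrays overlap less often, and the 5 members without overlap became 8 without control replicate 3, 12 without cKO replicate 1, 9 without cKO replicate 2 and 8 without cKO replicate 3, where 15.1%, 26.9%, 16.2% and 17.7% of all genes did not overlap.

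**Figure D1:**
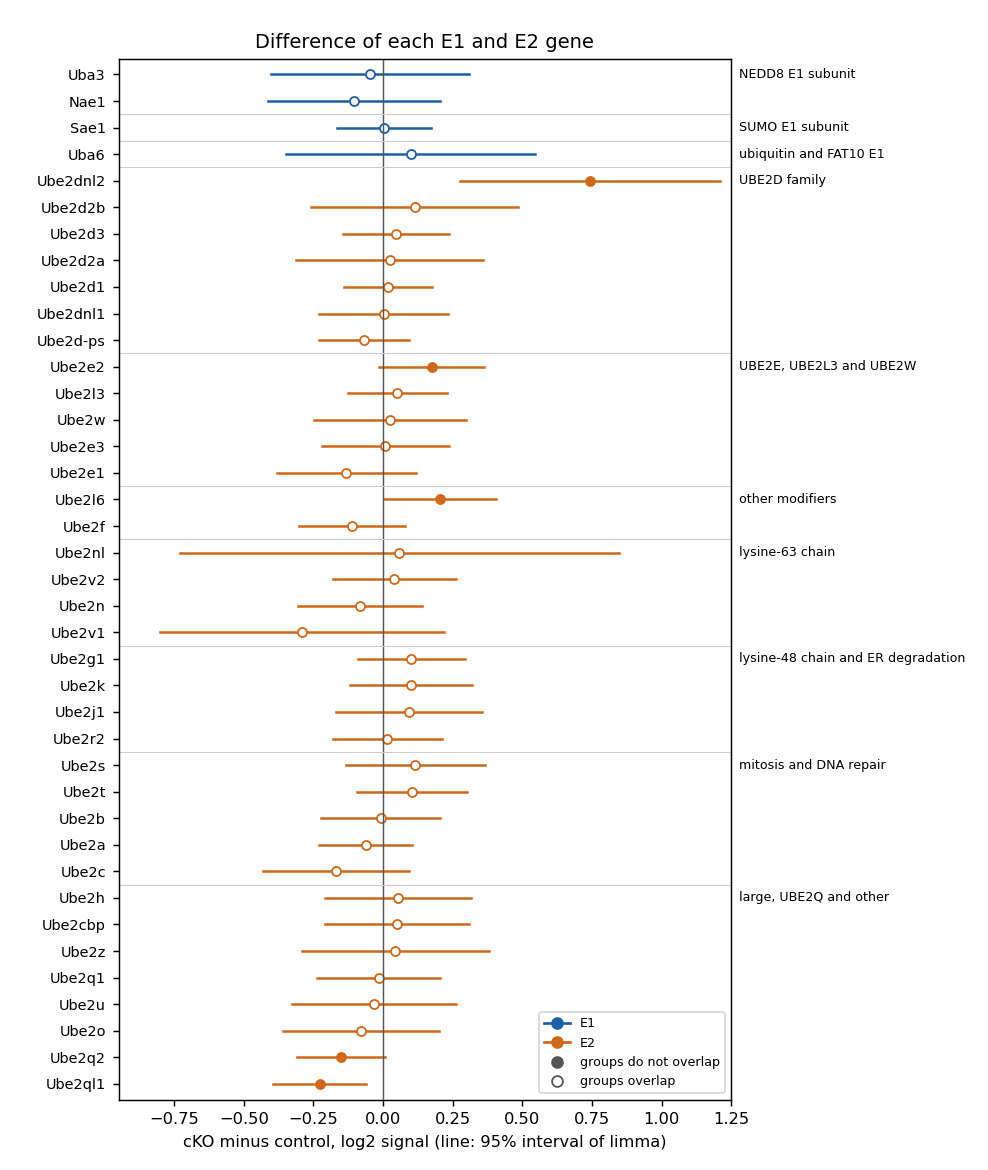
Each point is the cKO minus control difference of 1 member in log2 signal (x axis) and each line its 95% interval from limma, with E1 genes in blue, E2 genes in orange and filled points where the groups did not overlap. The point of Ube2dnl2 at 0.74 stands to the right of the other 38, which lie between -0.29 and 0.20.

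The differences of most members were small, and their intervals were wide beside them. Of the 39 differences, 37 were smaller than 0.25 in size (94.9%, beside 92.2% of all genes), and the exceptions were Ube2dnl2 and Ube2v1. The 95% interval lay within 0.5 of zero for 35 members (89.7%, beside 80.9% of all genes), and within 0.25 for only 11 (beside 4544 of all 19700 genes). It reached past 0.5 for Uba6, Ube2v1, Ube2nl and Ube2dnl2, so larger differences are not bounded there. The 4 E1 genes had a median difference of -0.022, with 2 means higher and 2 lower. Their median was -0.099 without control replicate 1 and 0.065 without cKO replicate 1. The 35 E2 genes had a median of 0.024, with 22 means higher and 13 lower. The median over all genes was -0.0059, with 47.5% of means higher.

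Members were found at every signal level. Signals of different clusters rest on different probes, so their order says little of transcript levels. Of the 39, 6 lay in the lowest quartile of all genes by mean signal, 5 in the second, 14 in the third and 14 in the highest, and all 4 E1 genes lay in the upper 2. The median difference of the members was 0.053 in the lowest quartile, -0.084 in the second, 0.032 in the third and 0.020 in the highest. Over all genes it was 0.0038, -0.00042, -0.0058 and -0.019. The spread between replicates was wider at the bottom. The median SD within groups was 0.20 for the 6 dimmest members and 0.12 for the 14 brightest, beside 0.17 and 0.12 over all genes of these quartiles.

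**Figure D2:**
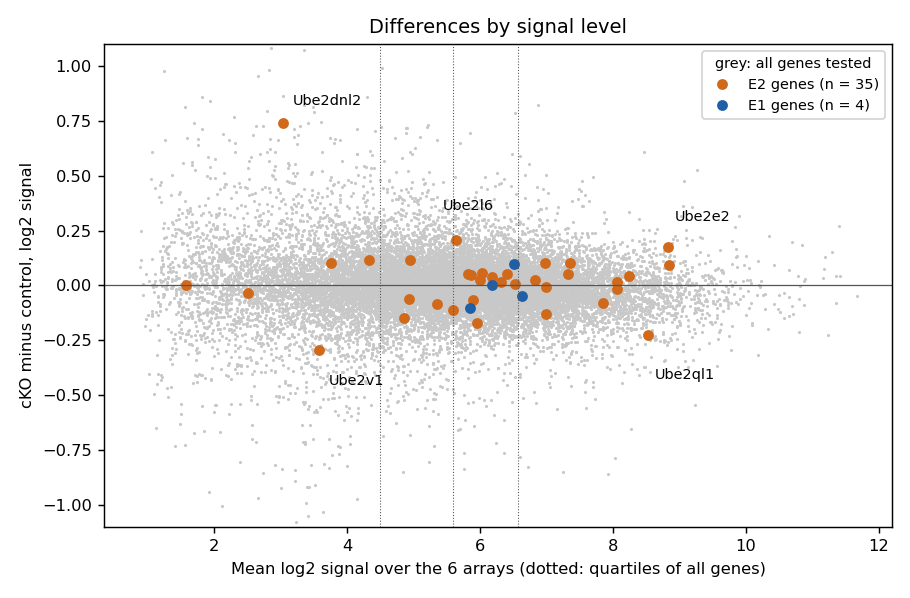
The difference between groups (y axis, log2 signal) is plotted against the mean log2 signal over the 6 arrays (x axis) for all genes in grey, E2 genes in orange and E1 genes in blue, with dotted lines at the quartiles of all genes. The grey cloud is wider at low signal, where Ube2dnl2 and Ube2v1 lie, and 10 genes lie beyond the 1.1 limits of the y axis.

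The E1 genes did not separate the groups. Uba3, the catalytic subunit of the NEDD8 E1, read 6.44, 6.75 and 6.78 in controls against 6.33, 6.72 and 6.78 in cKO brains, each in the order of replicate number as in all such sentences. Nae1, its regulatory partner, read 5.84, 5.89 and 5.98 in controls against 5.52, 5.96 and 5.93 in cKO brains. In both subunits cKO replicate 1 was the lowest array and the other 2 cKO arrays lay close to control replicates 2 and 3. The difference was -0.05 for Uba3 (standard error 0.15) and -0.10 for Nae1 (standard error 0.13). Without cKO replicate 1 they were 0.092 and 0.038, with the sign turned.

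Uba6, the E1 that activates both ubiquitin and FAT10, read 6.14, 6.56 and 6.68 in controls against 6.23, 6.73 and 6.71 in cKO brains. The 2 arrays numbered 1 were again the lowest. Its difference of 0.10 (standard error 0.19, 95% interval -0.35 to 0.55) ran from -0.063 without control replicate 1 to 0.26 without cKO replicate 1. Its 3 dimmer clusters differed by 0.05, 0.55 and -0.11, and their groups overlapped. Sae1, which forms the SUMO E1 together with UBA2, was the steadiest of the 4. It read 6.21, 6.15 and 6.15 in controls against 6.20, 6.21 and 6.11 in cKO brains, a difference of 0.0032 with a 95% interval from -0.17 to 0.17.

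**Figure D3:**
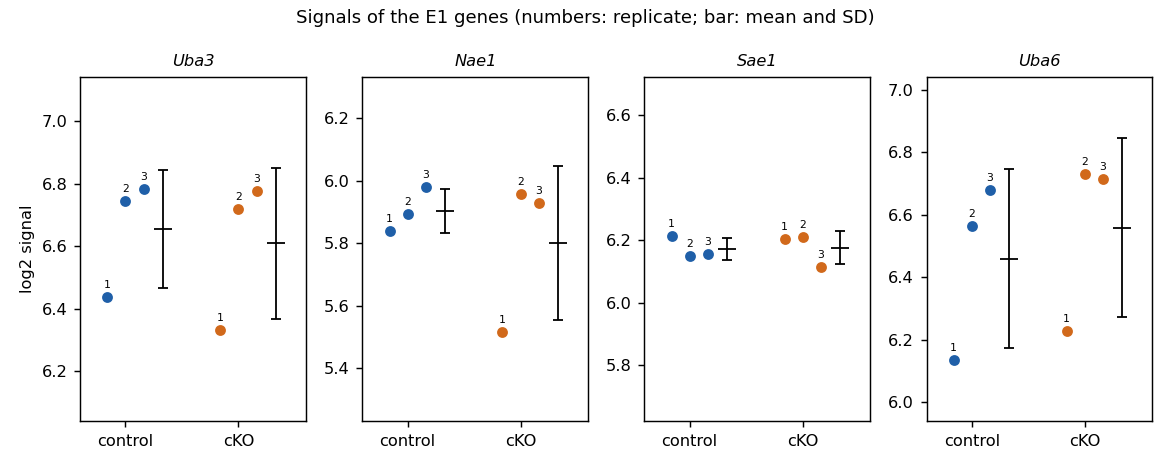
The log2 signal of each E1 gene (y axis, 1 panel per gene) is shown in the 3 control arrays (blue) and the 3 cKO arrays (orange), numbered by replicate, with the mean and SD of each group as bars. The arrays numbered 1 are low in Uba3, Nae1 and Uba6 and not in Sae1.

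The arrays numbered 1 lay low in other members too. Both of them were below all other 4 arrays in 3 of the 4 E1 genes and in 6 of the 35 E2 genes (Ube2k, Ube2nl, Ube2v2, Ube2d3, Ube2e3 and Ube2w), where 10.2% of all genes had this order. Both were above all others in 8 E2 genes, among them Ube2o, Ube2z, Ube2q1 and Ube2r2, and in 23.4% of all genes. This order was looked for after the values were seen. It was widest in Ube2nl, a gene named for its likeness to Ube2n, which read 5.53, 6.05 and 6.42 in controls against 5.38, 6.33 and 6.46 in cKO brains. The difference between groups in Ube2nl was 0.06 with a standard error of 0.33, and its 95% interval of -0.73 to 0.85 leaves a wide range of differences possible.

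The UBE2D enzymes accept ubiquitin for a broad range of RING ligases, and Ube2dnl1 and Ube2dnl2 are relatives named for their likeness to them. These 2 genes are neighbours on the X chromosome with no annotated gene between them. Ube2dnl2 had the largest difference of the 39 members. It read 2.63, 2.77 and 2.57 in controls against 3.01, 3.36 and 3.83 in cKO brains. All 3 cKO arrays lay above the controls, and they were more spread out (SD 0.41 against 0.10). The lowest of them was cKO replicate 1, the array with the high Xist signal. The difference was 0.74 (standard error 0.20, 95% interval 0.28 to 1.21, unadjusted p = 0.00717, adjusted p = 1 from limma), a fold change of 1.67. It lay between 0.53 without cKO replicate 3 and 0.94 without cKO replicate 1. The signal was above only 8.30% of the genes tested, in the range where 6.21% of all genes had an unadjusted p under 0.05.

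Ube2dnl1 had a still lower signal, above 1.13% of genes, and read 1.64, 1.46 and 1.63 in controls against 1.63, 1.67 and 1.43 in cKO brains. Its difference was 0.0018 (95% interval -0.23 to 0.23). The promoters of the 2 neighbours are shown because they share a stretch around the transcription start. Counted from the annotated start site, it runs from -69 to 23 in Ube2dnl1 and from -46 to 46 in Ube2dnl2. The values of the 2 genes rest on different probes at low signal, and they were not tested against each other. In the RefSeq promoter table for GRCm38.p6, 93 bases aligned with 88 identical (94.6%). Both stretches are on the plus strand, at chrX:114904943-114905035 for Ube2dnl1 and chrX:114907536-114907628 for Ube2dnl2, and capitals mark the longest run common to both, of 47 bases.
Ube2dnl1: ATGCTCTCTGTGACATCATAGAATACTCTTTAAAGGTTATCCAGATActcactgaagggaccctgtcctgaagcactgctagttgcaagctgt
Ube2dnl2: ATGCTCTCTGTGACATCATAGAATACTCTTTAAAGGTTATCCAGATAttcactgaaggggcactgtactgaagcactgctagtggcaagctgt
Searched on both strands, the capitalised run occurred in 2 of the 32851 promoters in the table, these 2.

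The UBE2D genes proper differed little. Ube2d1 read 6.33, 6.30 and 6.28 in controls against 6.33, 6.34 and 6.30 in cKO brains, a difference of 0.02 with a 95% interval from -0.14 to 0.18. Ube2d3 differed by 0.05 (standard error 0.080), and its dimmer cluster by -0.07. A brighter cluster that Ube2d3 shares with Flna and Ctag2l1 differed by -0.11 (standard error 0.13), with overlapping groups. Ube2d-ps, annotated as a pseudogene, differed by -0.07 (standard error 0.068). Ube2d2b, a copy with a dim signal, had a difference of 0.11 (standard error 0.16), or -0.046 with control replicate 3 left out. For Ube2d2a the brightest of 5 clusters differed by 0.02 (standard error 0.14), while the other 4 lay between -0.37 and 0.75, all with overlapping groups. These genes are alike in sequence, and cross-hybridisation between their probes was not tested.

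Ube2e2 had one of the brightest signals among the members, above 98.2% of genes. It encodes an E2 with an extended N-terminus that works with RING ligases. It read 8.70, 8.70 and 8.80 in controls against 8.83, 9.0 and 8.90 in cKO brains. The groups did not overlap, though the gap between control replicate 3 and cKO replicate 1 was narrow. The difference was 0.18 (standard error 0.080, unadjusted p = 0.0642 from limma), a fold change of 1.13, and 0.13 to 0.21 with 1 array left out. Its relatives Ube2e1 and Ube2e3 differed by -0.13 (standard error 0.11) and 0.0075 (standard error 0.096). Ube2e1 read 6.75 in cKO replicate 3 and 6.95 to 7.11 on the other 5 arrays, and its difference was -0.042 without that replicate. Ube2l3, the E2 of HECT and RBR ligases such as parkin, differed by 0.05 and Ube2w, which attaches ubiquitin to protein N-termini, by 0.03, with overlapping groups in both.

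Of the E2 genes of other modifiers, that of ISG15 was higher. Ube2l6, which conjugates this interferon-induced modifier, read 5.63, 5.44 and 5.54 in controls against 5.80, 5.65 and 5.77 in cKO brains. The lowest cKO array lay just above the highest control array. The difference was 0.20 (standard error 0.085, 95% interval 0.0032 to 0.41, unadjusted p = 0.0473, adjusted p = 1 from limma), a fold change of 1.15. It ran from 0.16 without control replicate 2 to 0.25 without cKO replicate 2. Isg15 itself was dim and differed by -0.15 (standard error 0.36). Its protease gene Usp18 differed by 0.07 (standard error 0.093), and the ligase genes Herc6 and Trim25 by 0.28 (standard error 0.17) and 0.09. The groups overlapped in each of these 4 genes, 3 of which had a higher mean, with a median of 0.08. The difference of Uba7, the E1 of ISG15, was 0.014 (standard error 0.094) in a cluster shared with Cdhr4. Ube2f, which passes NEDD8 to cullin 5, read 5.58, 5.71 and 5.64 in controls against 5.44, 5.58 and 5.58 in cKO brains. The groups of Ube2f met at 5.58, and the difference was -0.11 (standard error 0.080). Its other cluster, with a mean signal of 1.64, differed by 0.35.

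**Figure D4:**
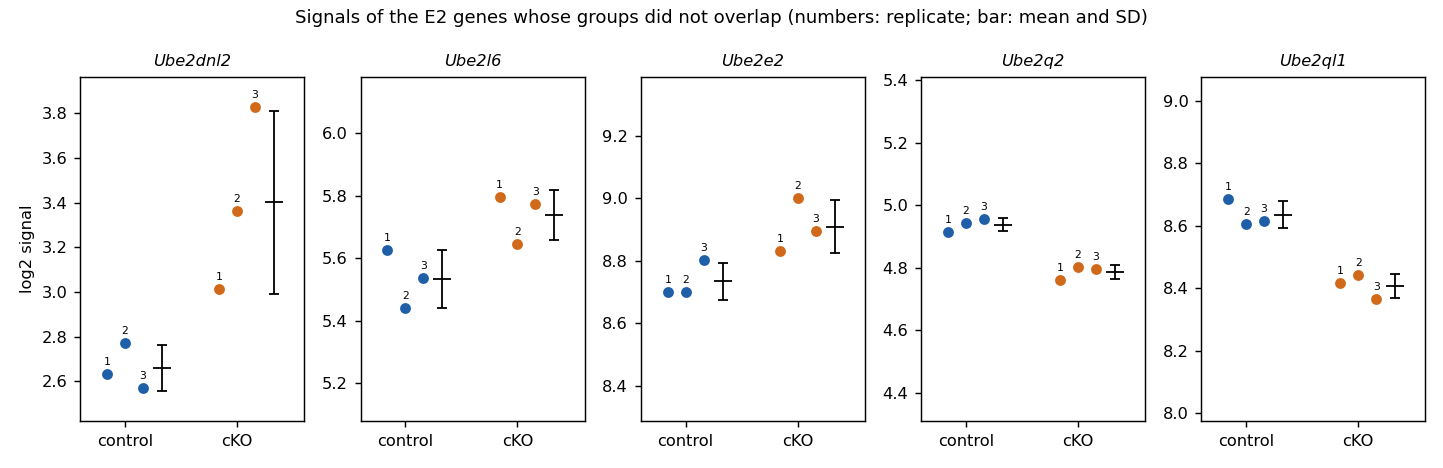
The log2 signal (y axis) of the 5 E2 genes whose groups did not overlap is shown by array, with controls in blue and cKO brains in orange, replicate numbers above the points and the mean and SD of each group as bars. The panels differ in the range of the y axis. The groups of Ube2dnl2, Ube2ql1 and Ube2q2 lie clearly apart, and those of Ube2l6 and Ube2e2 almost touch.

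Ube2n, which builds K63-linked chains together with the inactive variants encoded by Ube2v1 and Ube2v2, differed by -0.08 (standard error 0.094). Ube2v2 differed by 0.04 (standard error 0.093). Ube2v1 had the largest negative difference of the members, at a signal above 12.8% of genes. It read 3.90, 3.89 and 3.39 in controls against 3.41, 3.09 and 3.81 in cKO brains, so the groups overlapped. The difference of -0.29 (standard error 0.21) ran from -0.48 without cKO replicate 3 to -0.12 without cKO replicate 2. A brighter cluster that Ube2v1 shares with Tmem189 differed by -0.0086 (standard error 0.077).

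The 4 members for K48-linked chains and degradation at the endoplasmic reticulum had slightly higher means with overlapping groups. Ube2j1, a membrane-anchored E2 of the endoplasmic reticulum, was the brightest member. It read 8.75, 8.81 and 8.84 in controls against 9.11, 8.80 and 8.75 in cKO brains, so cKO replicate 1 alone was high. Its difference was 0.09 (standard error 0.11), or -0.022 with that array left out. Ube2k and Ube2g1, which extend K48-linked chains, each differed by 0.10 (standard errors 0.092 and 0.081), and by 0.042 and 0.040 without control replicate 1. Ube2r2, an E2 of cullin-RING ligases, differed by 0.02, or -0.042 with cKO replicate 1 left out. Ube2g2 and Ube2j2, which also serve degradation at the endoplasmic reticulum, differed by 0.069 and -0.011 in clusters shared with Sumo3 and Gm5801.

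Of the E2 genes of mitosis and DNA repair, none separated the groups. Ube2c, which starts chains for the anaphase-promoting complex, read 6.07, 5.94 and 6.12 in controls against 6.04, 5.90 and 5.68 in cKO brains. The low value of cKO replicate 3 set much of the difference of -0.17 (standard error 0.11), which was -0.073 without it. The difference of Ube2s, which extends these chains, was 0.12 (standard error 0.11), or 0.020 with cKO replicate 1 left out. Ube2t, an E2 of the Fanconi anaemia pathway, differed by 0.10 (standard error 0.083). Ube2a and Ube2b, the mammalian RAD6 genes, differed by -0.06 and -0.0089. Of 5 measured markers of proliferating cells, 4 had a lower mean and none had an unadjusted p under 0.05, with differences from -0.08 to 0.09. The log2 of their mean linear signal was 4.40 to 4.48 in the controls and 4.36 to 4.50 in the cKO brains, and their part in these values was not tested.

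Ube2ql1, a member of the UBE2Q family with a bright signal, had the most closely grouped values of the 3 members below an unadjusted p of 0.05. It read 8.69, 8.61 and 8.62 in controls against 8.42, 8.44 and 8.37 in cKO brains. The lowest control array lay well above the highest cKO array, and each group had an SD of 0.04. The difference was -0.23 (standard error 0.070, 95% interval -0.39 to -0.06, unadjusted p = 0.0144, adjusted p = 1 from limma), a fold change of 0.854. With 1 array left out it lay between -0.24 and -0.20. Ube2q2 of the same family read 4.91, 4.94 and 4.96 in controls against 4.76, 4.80 and 4.80 in cKO brains, and here too the groups lay apart. The difference of Ube2q2 was -0.15 (standard error 0.067, unadjusted p = 0.0586 from limma), and -0.16 to -0.14 with 1 array left out. Ube2q1, the third measured gene of the family, read 8.16, 8.02 and 8.02 in controls against 8.18, 8.04 and 7.93 in cKO brains, a difference of -0.02 with a 95% interval from -0.24 to 0.20.

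Markers of cell types and of other tissue were set beside these values. Of 6 measured markers of excitatory neurons, 4 had a lower mean. The log2 of their mean linear signal weighs the brightest markers of a list most, here Camk2a and Slc17a7. It was 9.58 to 9.71 in the controls and 9.43 to 9.63 in the cKO brains. In the 4 striatal markers, all lower, it was 7.09 to 8.23 in the controls and 6.24 to 7.12 in the cKO brains, and in the 5 oligodendrocyte markers, all lower, 8.54 to 8.84 and 8.21 to 8.69. The 5 microglial markers lay at 6.69 to 6.91 and 6.77 to 6.995, with 3 of 5 higher. The 4 measured astrocyte markers all had a higher mean, by 0.013 to 0.13, and the groups overlapped in each of them. Their joint level, weighted toward the brightest, Slc1a3, was 7.91 to 8.055 in the controls and 8.061 to 8.10 in the cKO brains, so the groups almost touched. Of 6 interneuron markers, 5 had a lower mean, with a median difference of -0.12. Their joint level, weighted toward the brightest, Sst (difference -0.03), was 8.26 to 8.73 and 8.24 to 8.56. Slc32a1 differed by -0.31, Pvalb by -0.24 and Vip by 0.13, with overlapping groups. The 3 choroid plexus markers, 1 higher and 2 lower, ranged widely within each group, at 5.15 to 8.21 in the controls and 5.19 to 8.43 in the cKO brains. Alas2, the measured red cell marker, was higher by 0.45 (unadjusted p = 0.0359, adjusted p = 1 from limma). Neurod6 and Bcl11b of the first list were lower without overlap, by -0.44 and -0.30 (unadjusted p = 0.0243 and 0.0177, adjusted p = 1 from limma). The groups overlapped in the rest of that list, where Slc17a7 differed by -0.21, Neurod2 by -0.0083, Tbr1 by 0.0048 and Camk2a by 0.033. The dimmest marker in the lists given here, among those of astrocytes, lay above 29.7% of genes. The part of cell composition in the values of Ube2ql1, Ube2q2, Ube2e2 and Ube2l6 was not tested. In tissue, fewer cells of a type and less RNA per cell cannot be told apart.

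The remaining members had overlapping groups and differences between -0.08 and 0.05. Ube2z, the E2 that UBA6 loads, read 8.26, 8.24 and 8.17 in controls against 8.57, 8.23 and 8.004 in cKO brains, with the highest and the lowest value both among the cKO arrays. Its difference was 0.04 (standard error 0.14). Ube2o, a large E2 that also acts as a ligase, had a difference of -0.08 (standard error 0.12), or 0.017 with cKO replicate 3 left out. Ube2h, the E2 of the CTLH ligase, differed by 0.05 and Ube2u by -0.03. Ube2cbp, which encodes a ligase that binds UBE2C rather than an E2, differed by 0.05.

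The other genes of these pathways, in 12 lists of modifiers, ligases and proteases, were counted in the same way. Of 122 symbols listed, 103 were measured, 52 with a higher and 51 with a lower mean, and 0 passed an adjusted p under 0.05 from limma. Without adjustment, p was under 0.05 for 3 with a higher and 1 with a lower mean (3.88%, beside 3.96% of all genes). The lower one was Atg7. Uevld, which encodes an inactive E2-like protein, was higher by 0.21 (standard error 0.081). Anapc13 and Anapc16, subunits of the anaphase-promoting complex, were higher by 0.19 (standard error 0.081) and 0.21 (standard error 0.088). Of the 14 measured genes of this complex, 10 had a higher mean, with a median of 0.02. The 16 cullin and neddylation genes had a median of -0.04, with 5 means higher and 11 lower, and the 11 SUMO ligase and protease genes had a median of -0.01, all with an unadjusted p above 0.05.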

How the data were processed

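The authors extracted total RNA, hybridised labelled cDNA to Affymetrix mouse exon arrays and analysed them in GeneSpring. The deposited matrix gives log2 signals of 101175 transcript clusters on 6 arrays, summarised and normalized by a method not given in the sources used here. A second deposited table holds only the authors' own p-values and fold changes and was not used. The array annotation gives 1 symbol for 22773 clusters and several for 1503, and 76899 are unnamed here. Clusters with 1 symbol were kept, as was the cluster of Atg7 although Camsap1 shares it, and the brightest cluster stood for a gene. This left 19700 genes without a filter on low signal. All 39 members matched a RefSeq gene.

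Groups followed the genotype in the labels. Differences are cKO minus control, and were tested two-sided in R 4.3.3 with limma 3.58.1 (lmFit, eBayes). The p-values were adjusted by the Benjamini-Hochberg method across the 19700 genes, with a threshold of 0.05. The fit was tested on simulated data. The members and lists were chosen with earlier results of these data known, so no list was tested as a set. The rule for named genes took each E1 gene with its values in every array, the 6 brightest E2 genes, the 6 with the largest difference in each direction, those without overlap or with an unadjusted p under 0.05, those whose clusters differ in sign and those of other modifiers. The remaining E2 genes were named for their role after their values were seen. Alternatives were another normalization, median centring, a filter on dim genes, other models of the spread, other choices of cluster, a replicate block and each array left out. After seeing the values, a term for the arrays numbered 1 and the removal of both were added. The number of arrays limits the precision.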

Additional observations from a re-analysis of the deposited data

How the results depend on the processing

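The count of genes with an adjusted p under 0.05 was 0 in every setting except 2, where it was 1, once with the lowest 25% of genes left out and once with averaged clusters, and that gene was Peg10, no member. The count of members at an unadjusted p under 0.05 was 3, and 5 without moderation of the spread (3.99% of all genes) and with a term for the arrays numbered 1 (6.50%). It was 2 to 4 with 1 array left out, beside 3.12% to 7.66% of all genes. The 4 came without cKO replicate 1, where the share of all genes was 7.66%. Members without overlap numbered 5, beside 8.40% of all genes. They numbered 7 to 12 with 1 array left out, beside 15.1% to 26.9% of all genes, and the 12 came without cKO replicate 1. With both arrays numbered 1 left out they numbered 15, where 37.7% of all genes did not overlap, since fewer arrays overlap less often. The median of the E1 genes lay between -0.099, without control replicate 1, and 0.065, without cKO replicate 1, and that of the E2 genes between -0.013, without cKO replicate 2, and 0.031, without control replicate 1. Ube2f turned to 0.12 with its clusters averaged, where its dimmer cluster counts equally. The other 203 of 204 values for 16 named members moved by less than the SD between replicates. Leaving out 1 array of 3 cannot move a difference by that much. Several settings, such as the filter on dim genes, leave the difference of a gene with 1 cluster as it was. The count therefore says little of how steady the values are, and it includes changes of sign, as in Nae1 and Uba3. Same-numbered arrays deviated together with correlations of 0.307, 0.0373 and 0.166, highest for the arrays numbered 1, and control replicate 2 correlated slightly better with cKO replicate 3 (0.0464). Not every pair was above 0.1, and the numbers were not taken to pair the samples. With a replicate block 0 genes passed and 3 members had an unadjusted p under 0.05 (5.87% of all genes).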
